A study of Mus musculus with 2 samples.

Results

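End joining of DNA breaks and its control by 53BP1 were described for 10 genes, taken by symbol from the count tables: Xrcc5, Xrcc6, Prkdc, Dclre1c, Xrcc4, Lig4, Nhej1, Paxx, Trp53bp1 and Rif1. All 10 were found among the 55414 gene identifiers of the tables. RNA-seq read counts came from mouse embryonic stem cells of the wild-type line R1E, grown in serum with leukemia inhibitory factor. One library was untreated and labelled 0 h, and the other was made after 8 h with 0.5 µM Adriamycin. This drug, doxorubicin, poisons topoisomerase II and leaves breaks in DNA, and the comparison asks how transcript levels differ with and without it. With 1 library in each condition there was no replicate and hence no test, and every difference below is one between these 2 libraries. Drug, time in culture and differences between the cultures cannot be told apart.

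Non-homologous end joining seals broken DNA without a template. The ring of Ku70 and Ku80 slides onto the ends and brings in the kinase DNA-PKcs, which works with the nuclease Artemis to open hairpins and trim ends. XRCC4 holds DNA ligase IV, and XLF and PAXX, which share the fold of XRCC4, help to bridge the ends. 53BP1 binds marked chromatin beside a break and, through RIF1 and the shieldin complex, shields the ends from resection, which favours end joining over recombination.

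The libraries held 41820999 reads (untreated) and 38561292 reads (Adriamycin). The 8 pluripotency markers checked were all at 347 TPM or more in the untreated library and at 243 TPM or more in the Adriamycin library (TPM is reads per kilobase of exon, with all genes scaled to the same sum). Of 8 fibroblast markers, Col3a1, Dcn, Lum and Postn were at 0 reads in both libraries, and the list summed to 28.2 and 50.1 TPM. Most of that rise was Col1a1, with 214 and 1295 reads (2.92 and 18.7 TPM, 5.92-fold higher), and Pdgfrb had a log2 ratio of 0.58. Thy1, with 484 and 448 reads, had a log2 ratio of -0.14, and Col1a2, with 59 and 62 reads, one of 0.04. The part of such cells in the values of the 10 genes was not tested. The 6 lymphocyte and blood markers summed to 7.16 and 11.2 TPM, with Ptprc at 0 in both. The transcript of Mdm2, a p53 target, was 7.16-fold higher in the Adriamycin library and that of Cdkn1a 3.10-fold higher, while Trp53 had a log2 ratio of -0.57.

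The 10 genes did not move as a group. Log2 ratios are Adriamycin over untreated after TMM scaling of the library sizes. Ranges in parentheses are 95% counting intervals from all reads, which cover counting error only. The counting command has no setting that joins the mates of a pair, so mates were likely counted separately. Intervals from all reads are then too narrow, and counts divided by 2 give wider ones. Nhej1 was 3.17-fold higher in the Adriamycin library and Rif1 was 2.25-fold lower, and the other 8 lay within 2-fold. In bulk RNA, fewer cells with a transcript and less of it per cell cannot be told apart. At least 2-fold higher was 1 of 10 genes, beside 17.0% of the 14871 genes measured (mean of 1 CPM or more, CPM being reads scaled to library size), and 1 of 10 was at least 2-fold lower, beside 6.95%. With library sizes scaled to total counts instead, 2 were higher and 1 was lower. At 1.5-fold, 2 of 10 were higher (25.7% of all measured genes) and 2 of 10 lower (18.9%). These shares are near the background. The median log2 ratio of the 10 was -0.07, beside -0.03 for all measured genes, with 7 of 10 below 0 beside 51.6% of all genes. Total counts shifted the median of all genes to 0.12 and upper-quartile factors shifted it to -0.15, so ratios close to 0 have no firm sign.

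**Figure D1:**
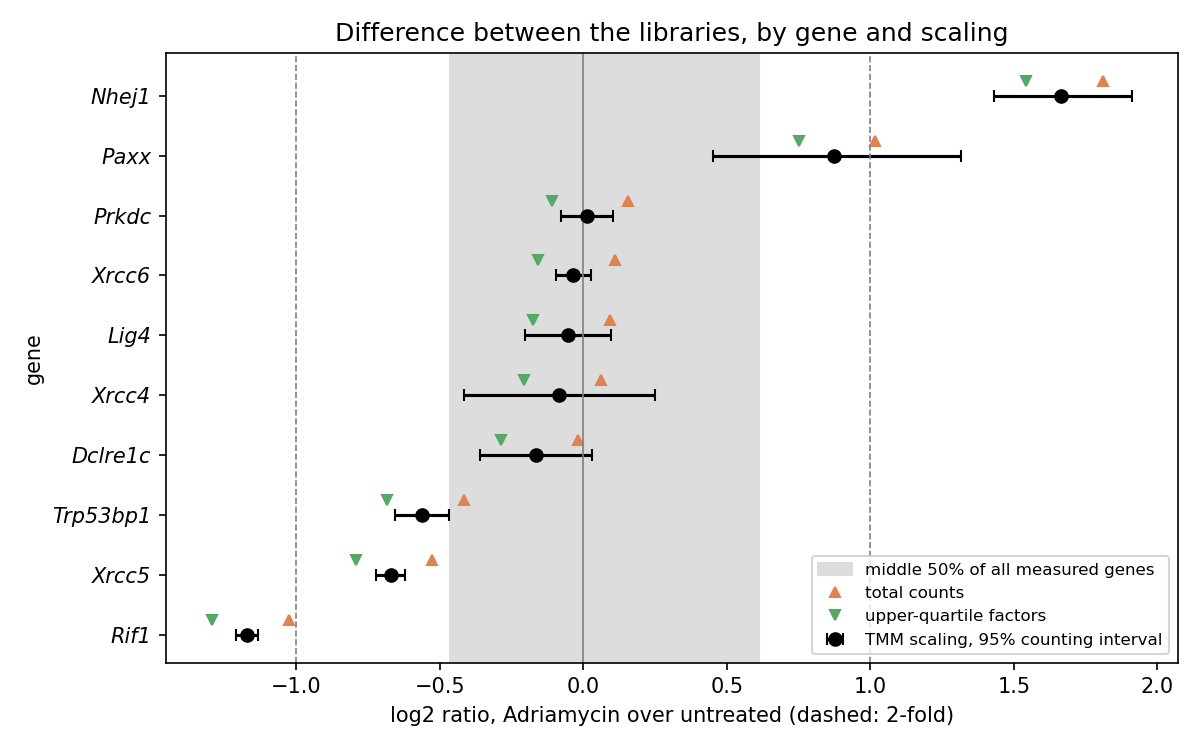
Log2 ratio of Adriamycin over untreated (horizontal axis) for each of the 10 genes (vertical axis), with TMM scaling and its 95% counting interval (black points and bars, 1 library per condition) and with 2 other scalings (triangles); the grey band holds the middle 50% of all measured genes and dashed lines mark 2-fold. Nhej1 lies at 1.67 and Rif1 at -1.17, beyond the dashed lines under each scaling shown, while Prkdc, Xrcc6, Lig4, Xrcc4 and Dclre1c lie inside the band.

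The promoter windows of Nhej1, Paxx and Xrcc5 are printed because these are the genes with a window in the RefSeq table (build GRCm38.p6) that differed by at least 1.5-fold between the libraries. Each is the 250 bases that end just before the annotated start, 5′ to 3′ on the gene's strand. Capitals mark a CCAAT box, read on both strands. Nhej1 lies at chr1:75125227-75125476 on the minus strand, Paxx at chr2:25461095-25461344 on the minus strand and Xrcc5 at chr1:72307171-72307420 on the plus strand.
Nhej1: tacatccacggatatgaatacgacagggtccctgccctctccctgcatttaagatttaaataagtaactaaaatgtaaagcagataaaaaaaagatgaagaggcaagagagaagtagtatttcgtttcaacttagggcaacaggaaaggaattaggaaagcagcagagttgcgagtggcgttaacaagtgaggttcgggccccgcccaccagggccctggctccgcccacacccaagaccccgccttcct
Paxx: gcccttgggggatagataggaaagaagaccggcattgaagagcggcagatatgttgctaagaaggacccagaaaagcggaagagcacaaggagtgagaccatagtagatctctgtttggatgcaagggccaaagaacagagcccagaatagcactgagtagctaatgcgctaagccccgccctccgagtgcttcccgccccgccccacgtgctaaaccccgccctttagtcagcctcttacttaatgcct
Xrcc5: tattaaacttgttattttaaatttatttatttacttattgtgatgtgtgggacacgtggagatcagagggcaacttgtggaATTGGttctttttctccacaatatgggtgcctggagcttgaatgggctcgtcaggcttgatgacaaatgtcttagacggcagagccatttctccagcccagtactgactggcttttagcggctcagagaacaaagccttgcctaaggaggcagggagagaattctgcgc

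Windows were matched for 8 of the 10 genes, all but Prkdc and Rif1. They were searched on both strands for 4 motifs, and no matches of different motifs overlapped. The p53 half-site consensus was in none of the 8, beside 8.20% of 27025 genes with such a window. CCAAT was in the windows of Xrcc5 and Dclre1c, 2 of 8 beside 37.5% of genes. CCGGAAG, the core that ETS factors bind, was in those of Lig4 and Xrcc4, 2 of 8 beside 7.83%. An E2F type motif, TTTNNCGC, was in that of Xrcc6 (1 of 8 beside 4.94%). CpG pairs numbered 9 in the printed window of Nhej1, 10 in that of Paxx and 5 in that of Xrcc5, beside a median of 6 over all genes. They numbered 28 and 27 in the 2 windows of Lig4, 26 in that of Xrcc4 and 25 in that of Xrcc6, which are 3 genes with log2 ratios between -0.08 and -0.04. The window of Dclre1c, with a ratio of -0.16, held 8, and that of Trp53bp1, with a ratio of -0.56, held 13. A match is a run of letters and was not tied to binding here.

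The Ku subunits differed from each other in the comparison. Xrcc5, which encodes Ku80 (chromosome 1, 72346586 to 72434111, GRCm39), had 7920 reads in the untreated and 5069 in the Adriamycin library, or 199 and 125 CPM. It was 1.59-fold lower, a log2 ratio of -0.67 (-0.72 to -0.62). Of genes averaging 100 CPM or more, 27.9% were at least 1.5-fold lower, so Xrcc5 shares this difference with many abundant transcripts. With total counts its log2 ratio was -0.53, which no longer reaches 1.5-fold. Xrcc6, which encodes Ku70 (chromosome 15, 81872036 to 81924286), had 4417 and 4395 reads, or 111 and 108 CPM, and a log2 ratio of -0.04 (-0.10 to 0.03). Its sign flipped with total counts, to 0.11.

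The ratio of partner genes within a library does not depend on how the libraries are scaled. Exonic length counts all annotated exons of a gene, 2549 bases for Xrcc5 and 4476 for Xrcc6. A ratio per length thus depends on annotation, and its change between the libraries does not. Per exonic length, Xrcc5 stood at 3.15 times Xrcc6 in the untreated library and at 2.03 times in the Adriamycin library. That ratio was multiplied by 0.643 (0.609 to 0.679) between the libraries. With counts divided by 2, since mates were likely counted separately, the interval was 0.595 to 0.694. By these annotated lengths the Ku pair came closer to equal reads per length, whichever scaling of the libraries is used.

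The kinase and nuclease that follow Ku differed little. Prkdc, the gene of DNA-PKcs (chromosome 16, 15455730 to 15660099), had 1982 and 2038 reads, 49.8 and 50.3 CPM, with its log2 ratio at 0.01 (-0.08 to 0.10). With counts divided by 2 the interval was -0.12 to 0.14, and the other scalings gave values from -0.11 to 0.16. Dclre1c, the gene of Artemis (chromosome 2, 3425168 to 3465167), had 454 and 413 reads, 11.4 and 10.2 CPM, and a log2 ratio of -0.16 (-0.36 to 0.03). Reads per length of Prkdc were 3.08 times those of Dclre1c in the untreated and 3.49 times in the Adriamycin library. The change of that ratio, 1.13 (0.976 to 1.31), was not detectable at this depth.

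The genes of the ligation complex differed little between the libraries. Lig4, the gene of DNA ligase IV (chromosome 8, 10019049 to 10027686), had 741 and 728 reads, 18.6 and 18.0 CPM, with a log2 ratio of -0.05 (-0.20 to 0.10). Xrcc4, its scaffold partner (chromosome 13, 89922146 to 90237727), had 156 and 150 reads, 3.92 and 3.70 CPM, with a log2 ratio of -0.08 (-0.42 to 0.25). Both signs flipped with total counts, to 0.09 and 0.06. The ratio of Xrcc4 to Lig4 was multiplied by 0.979 (0.765 to 1.25). With so few Xrcc4 reads, a change of that ratio as large as these bounds was not detectable at this depth.

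The relatives of XRCC4 were the 2 genes that reached 1.5-fold higher with Adriamycin. Nhej1, the gene of XLF (chromosome 1, 75006298 to 75101844), had 191 reads in the untreated and 619 in the Adriamycin library, 4.80 and 15.3 CPM. Its log2 ratio was 1.67 (1.43 to 1.91), and 1.33 to 2.02 with counts divided by 2. The value ranged from 1.54 with upper-quartile factors to 1.81 with total counts, so it stayed past 2-fold under each scaling tried. Of all measured genes, 90.8% had a lower ratio, and among genes with a mean from 5 to under 20 CPM, 19.9% were at least 2-fold higher.

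Paxx (chromosome 2, 25345153 to 25351106) had 71 and 133 reads, 1.79 and 3.28 CPM. It was 1.83-fold higher, a log2 ratio of 0.87 (0.45 to 1.31), and 0.27 to 1.51 with counts divided by 2. With total counts the log2 ratio was 1.02, past 2-fold. Among genes with a mean from 1 to under 5 CPM, 42.6% were at least 1.5-fold higher, so the value of Paxx is common at its level. Xrcc4, the other gene of this fold, did not share the difference. Nhej1 gained on it by a factor of 3.37 (2.56 to 4.44) in reads, and Paxx by 1.95 (1.35 to 2.81). Nhej1 in turn gained on Paxx by a factor of 1.73 (1.24 to 2.41). With counts divided by 2 these intervals were wider, 2.27 to 4.97, 1.14 to 3.19 and 1.11 to 2.81, and each still lay above 1.

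**Figure D2:**
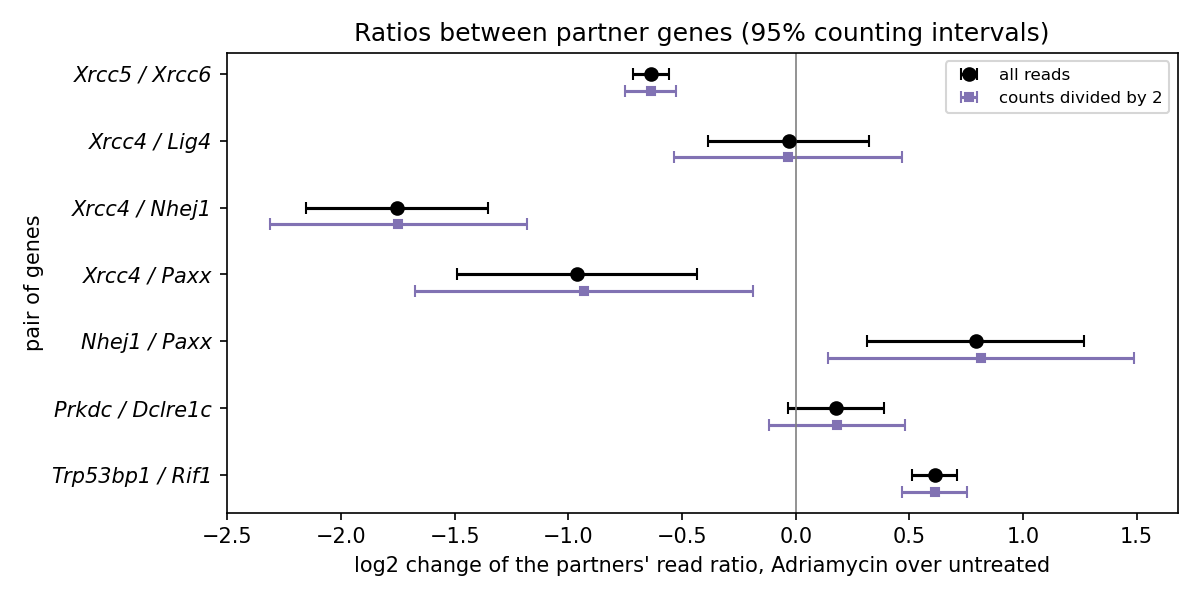
Log2 change between the libraries of the read ratio of 7 pairs of partner genes (horizontal axis, the first gene over the second), with 95% counting intervals from all reads (black circles) and from counts divided by 2 (purple squares), 1 library per condition. The intervals of Xrcc4 with Lig4 and of Prkdc with Dclre1c span 0, and those of the other 5 pairs do not.

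Both genes of the 53BP1 axis were lower in the Adriamycin library. Rif1, which acts with 53BP1 at breaks and also times DNA replication (chromosome 2, 51962844 to 52012395), had 18692 and 8456 reads, 470 and 209 CPM. Its log2 ratio was -1.17 (-1.21 to -1.14), and -1.03 with total counts, still past 2-fold. Of all measured genes 4.54% had a lower ratio, and of those averaging 100 CPM or more, 8.89% were at least 2-fold lower. Pluripotency markers were lower in the same library, with Zfp42 at 3.69-fold, Nanog at 3.16-fold and Esrrb at 2.08-fold. Tdgf1 was lower by 2.04-fold, Klf4 by 1.54-fold, Pou5f1 by 1.43-fold and Sox2 by 1.34-fold, while Dppa5a had a log2 ratio of -0.11. Their part in the value of Rif1 was not tested.

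Trp53bp1, the gene of 53BP1 (chromosome 2, 121023762 to 121101888), had 2258 and 1560 reads, 56.8 and 38.5 CPM. It was 1.48-fold lower, a log2 ratio of -0.56 (-0.66 to -0.47), just short of 1.5-fold. With upper-quartile factors the log2 ratio was -0.68, past 1.5-fold, and with total counts -0.42. Rif1 was the more reduced of the pair. Reads per length of Rif1 were 11.2 times those of Trp53bp1 in the untreated library and 7.31 times in the Adriamycin library, a change by a factor of 0.655 (0.611 to 0.702).

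Levels of the 10 genes, compared per length, spanned from 3.07 TPM for Paxx to 278 TPM for Xrcc5 in the untreated library. The length is that of all annotated exons of a gene, used in the cells or not, so the order depends on annotation too. Rif1 followed at 159 TPM and Xrcc6 at 88.3 TPM, and the counting intervals of these 3 genes did not overlap each other. Trp53bp1 (14.3 TPM), Prkdc (13.4), Lig4 (12.7) and Nhej1 (10.8) formed the middle. In it the interval of Trp53bp1 (13.7 to 14.9) met that of Prkdc (12.9 to 14.0), that of Prkdc met that of Lig4 (11.8 to 13.7), and that of Lig4 met that of Nhej1 (9.30 to 12.4). Dclre1c (4.36 TPM), Xrcc4 (3.31) and Paxx were the lowest, and the interval of Xrcc4 (2.81 to 3.87) overlapped that of Paxx (2.40 to 3.88). In the Adriamycin library Xrcc5 remained at the top with 188 TPM, and Xrcc6 at 92.9 TPM stood above Rif1 at 76.2 TPM. Nhej1 moved from place 7 to place 4 with 36.9 TPM, and Trp53bp1 from place 4 to place 7 with 10.4 TPM. Paxx reached 6.09 TPM, above Dclre1c at 4.20 and Xrcc4 at 3.37.

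**Figure D3:**
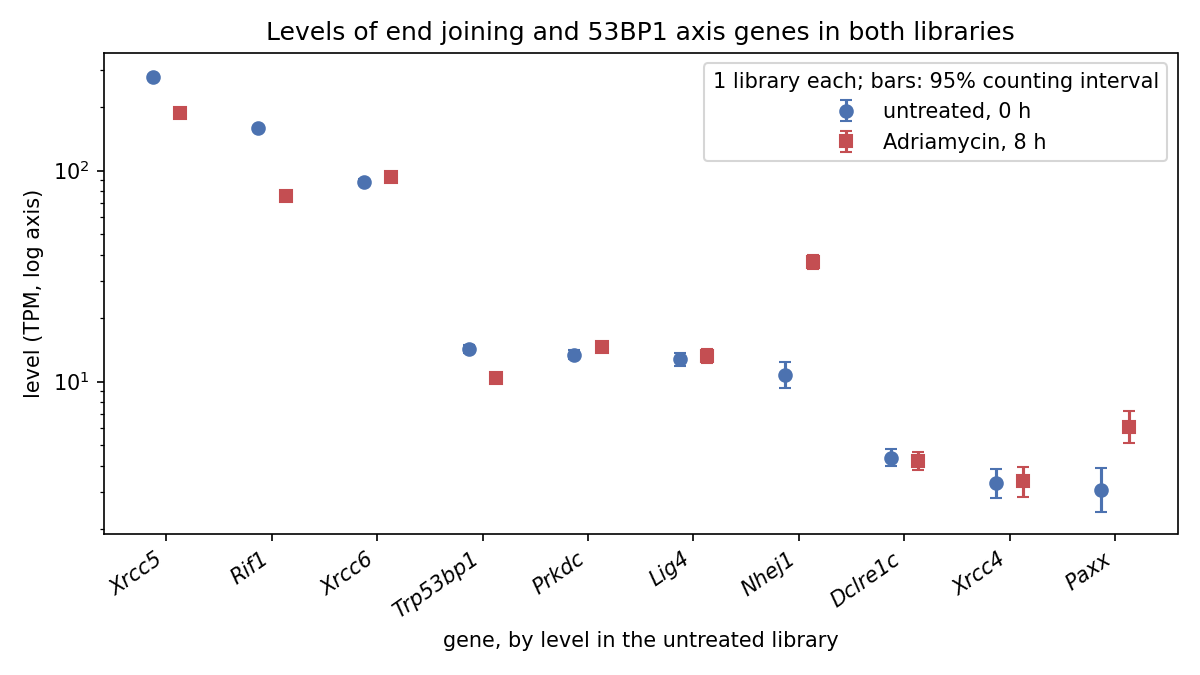
Level in TPM (vertical log axis) of the 10 genes, ordered by the untreated library, in the untreated (blue circles) and Adriamycin (red squares) libraries, 1 each, with 95% counting intervals as bars. Xrcc5, Rif1 and Xrcc6 lie at or above 76.2 TPM in both libraries, and Nhej1 goes from 10.8 to 36.9 TPM.

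Exons shared with another gene bear on some of these values. Reads were counted without strand, and the counting command has no option to count a read that overlaps several genes. Trp53bp1 shares 15.0% of its exonic bases with Tubgcp4 on the opposite strand (1265 and 914 reads, log2 ratio -0.50). Xrcc6 shares 7.69% with Desi1 (2332 and 1866 reads, -0.35), Dclre1c 3.83% with Suv39h2 (1111 and 631 reads, -0.84) and Xrcc4 2.66% with Tmem167 (2922 and 2093 reads, -0.51). The other 6 genes share none. Over unshared bases only, a choice made after seeing the data, the order of the levels was as above in both libraries, and Trp53bp1 stood at 16.2 and 11.9 TPM.

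Prkdc, Lig4 and Xrcc4, 3 of the 10 genes, start within 1000 bases of a measured gene that runs the other way, beside 15.0% of all measured genes (2234 of 14871). Prkdc starts 466 bases from Mcm4, a subunit of the replicative helicase, with 18439 and 12656 reads (log2 ratio -0.57, -0.60 to -0.54), against 0.01 for Prkdc. Lig4 starts 21 bases from Abhd13, with a log2 ratio of 0.16 (0.06 to 0.26) against -0.05. The annotated starts of Xrcc4 and Tmem167 lie 485 bases apart with overlapping ends, and Tmem167 had -0.51 (-0.59 to -0.43) against -0.08. In each pair the values of the neighbours differed by at least 0.2 on the log2 scale. The interval of Lig4 (-0.20 to 0.10) overlaps that of Abhd13. With counts divided by 2, that of Xrcc4 (-0.56 to 0.39) holds the value of Tmem167.

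Long genes were frequent among the 10, and they lay in both directions. Xrcc4, Prkdc, Nhej1, Xrcc5, Trp53bp1 and Xrcc6 are among the longest 25% of measured genes (at least 51101 bases from start to end), with log2 ratios from -0.67 for Xrcc5 to 1.67 for Nhej1. Over all measured genes the median log2 ratio was -0.04, -0.02, -0.04 and -0.01 in 4 groups of near equal size from the shortest to the longest. In the same order, the share at least 2-fold higher was 15.4%, 16.6%, 17.1% and 19.0%, greatest in the group that holds Nhej1. The share at least 2-fold lower was 8.85%, 6.64%, 5.73% and 6.59%, greatest among the shortest genes and least in the group that holds Rif1. A ratio within 0.1 (log2) of that of Nhej1 was found in 236 other measured genes and within 0.1 of that of Rif1 in 347. For Prkdc, Xrcc6, Lig4, Xrcc4 and Dclre1c the number was from 1623 to 1774.

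The wider pathway was read from 7 lists with 58 genes, of which 57 were matched to an identifier (all but Shld3) and 52 were measured. At least 2-fold higher were 6 of 52 (17.0% of all measured genes) and 2-fold lower 3 of 52 (6.95%), with a median log2 ratio of -0.19. At 1.5-fold, 9 of 52 were higher (25.7% of all) and 8 lower (18.9%). With total counts 7 were at least 2-fold higher and 0 lower.

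Among genes that trim, fill or label ends, 2 of 10 measured were at least 2-fold higher and 0 lower. Of all measured genes the shares were 17.0% and 6.95%. The median of the list was 0.11 and became -0.01 with upper-quartile factors. Poll, a gap-filling polymerase of end joining, had 590 and 1335 reads (log2 ratio 1.15, 1.01 to 1.29). Cyren, a small protein that modulates end joining, had 89 and 319 reads (1.81, 1.47 to 2.17). Cyren shares 50.8% of its exonic bases with the antisense gene Tmem140 (44 and 192 reads). Reads that overlap both genes cannot be told apart and were not counted, so the value of Cyren rests on its other bases. Aplf, which ties XRCC4 to Ku, had a log2 ratio of 0.43 and Aptx, which removes adenylate from stalled ligation, 0.35. The tyrosyl-DNA phosphodiesterases Tdp2 and Tdp1, which remove trapped topoisomerases from DNA, were at -0.55 and -0.41. Dntt, the lymphoid template-free polymerase, had 0 and 11 reads and was below the level measured.

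Of 13 genes that sense a break and mark chromatin for 53BP1, 0 were at least 2-fold higher and 1 was lower. Of all measured genes the shares were 17.0% and 6.95%. The list had a median of -0.18, with 11 of 13 below 0, beside 51.6% of all genes. The median was -0.037 with total counts, which left 0 of 13 at least 2-fold lower, and -0.30 with upper-quartile factors. The 1 lower gene was Kmt5a, which sets the first methyl group on lysine 20 of histone H4, the residue that 53BP1 reads once it carries another. Its reads numbered 5410 and 2535 (log2 ratio -1.12, -1.19 to -1.05). Kmt5c, which adds further methyl groups there, had 6680 and 8046 reads and a ratio of 0.24. Rad50, of the complex that senses breaks, had 4239 and 5768 reads (0.42). H2afx, the histone variant phosphorylated at breaks, had 22993 and 16820 reads (-0.48), and Ube2n, a ubiquitin-conjugating enzyme that works with Rnf8, was at -0.53.

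Effectors of 53BP1 had 2 of 10 measured at least 2-fold higher and 0 lower. Of all measured genes the shares were 17.0% and 6.95%. The median of the list was -0.04 and became 0.10 with total counts. Shld2, the shieldin subunit that binds single-stranded DNA, had 1172 and 3684 reads, 3.08-fold higher, with a log2 ratio of 1.62 (1.53 to 1.72). Ctc1, the large subunit of the CST complex that leads polymerase alpha to shielded ends and telomeres, had 8264 and 23953 reads, 2.84-fold higher, with a ratio of 1.51 (1.47 to 1.54). Their partners were not as far apart. Stn1, the CST subunit next to Ctc1, had 443 and 643 reads (0.51), and Mad2l2, the shieldin subunit REV7, had 2159 and 1512 reads (-0.54). Pola1, the catalytic subunit of polymerase alpha, was at -0.58, and Prim1, the primase subunit that works with it, was at 0.26. Pagr1a, a partner of PTIP, had 0 reads in both libraries, with 98.7% of its exonic bases shared with other genes.

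Genes that restrain 53BP1 or its marks went both ways, with 2 of 7 at least 2-fold higher and 2 lower. Of all measured genes the shares were 17.0% and 6.95%. The median of the list was -0.62. With total counts 0 of 7 were at least 2-fold lower and the median was -0.47. Rnf169, which competes with 53BP1 for ubiquitylated chromatin, had 2168 and 7034 reads, 3.18-fold higher, a log2 ratio of 1.67. L3mbtl1, a reader of the same methylated lysine as 53BP1, had 44 and 109 reads (1.27, 0.76 to 1.82). It averaged 1.90 CPM, and among genes with a mean from 1 to under 5 CPM, 31.8% were at least 2-fold higher. With a mean of at least 5 CPM required, 1 of 6 in the list was at least 2-fold higher. Trip12, a ubiquitin ligase that limits RNF168, was lower, with 54062 and 25463 reads (-1.11, -1.14 to -1.09). Nudt16l1, which covers the chromatin-binding face of 53BP1, had 1502 and 951 reads (-0.69), with 28.7% of its exonic bases shared with another gene. Trip13, which takes REV7 out of shieldin, was at -0.62 and the demethylase gene Kdm4a at -0.26.

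The competing routes had no gene past 2-fold with TMM factors, beside 17.0% of all measured genes higher and 6.95% lower. With 6 genes in each list, a count of 0 says little. In resection, which opens ends for recombination, 0 of 6 were at least 2-fold higher or lower and the median was -0.27. Dna2, a resection nuclease, had a log2 ratio of 0.61, Blm, a helicase, -0.66, Brca1 -0.43 and Rbbp8, which starts resection, -0.10. In alternative end joining 0 of 6 passed in either direction, with a median of -0.23. Xrcc1, the scaffold of ligase III, had 4021 and 8100 reads and a ratio of 0.98 (0.93 to 1.04), which passes 2-fold with total counts. Lig3 itself had 4483 and 2768 reads (-0.72), with 25.1% of its exonic bases shared with Rffl, and Lig1 was at -0.59. Fen1 had 82 and 130 reads (0.63), with 84.2% of its exonic bases shared with other genes, so its value is uncertain.

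The recombinase genes that make programmed breaks in lymphocytes, which end joining seals, were at or near 0. Rag2 had 0 reads in both libraries, and Rag1 had 0 and 2. A count of 0 was taken to allow an expected count of up to 3 reads, equal to 0.0754 CPM (untreated) and 0.0740 CPM (Adriamycin). This limit does not hold for Pagr1a, since reads in shared exons were not counted.

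**Figure D4:**
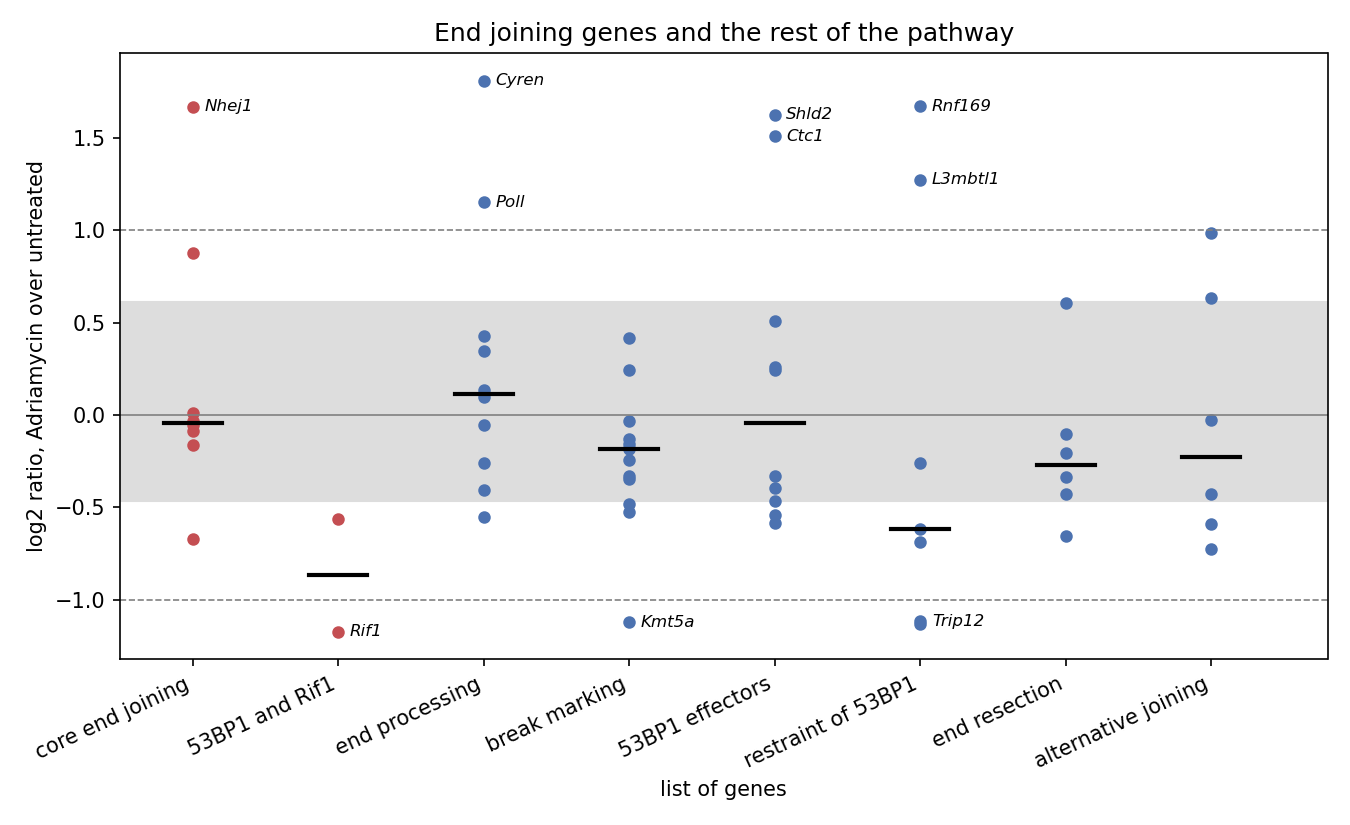
Log2 ratio of Adriamycin over untreated (vertical axis) for measured genes of each list (horizontal axis), the 10 genes in red and other pathway genes in blue, 1 point per gene; black bars are list medians, the grey band is the middle 50% of all measured genes and dashed lines mark 2-fold. All genes past 2-fold but 1 are named, with Shld2, Ctc1 and Rnf169 near Nhej1 at the top and Trip12 and Kmt5a near Rif1 at the bottom.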

How the data were processed

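RNA-seq read counts per gene were used from 2 libraries, 1 untreated and 1 given Adriamycin. Per the file headers, the authors' deposited counts were made with featureCounts 2.0.3 on paired-end reads over exons of Ensembl release 105 (GRCm39), not normalized. Per the submitters' processing notes, the tools were HISAT2 2.0.4, Trim Galore 0.3.4, FastQC, DESeq2 1.16.1 and featureCounts 1.6.0, and the builds mm10 and mm9, so counter and build differ from the headers. The authors' DESeq2 output was not analysed here. The header has no setting that joins mates into fragments, and more genes had exactly 2 reads than exactly 1 (2067 and 1629 untreated, 2266 and 1719 with Adriamycin). Mates were thus likely counted separately, and intervals from all reads, those of the levels among them, are then too narrow.

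Symbols came from GENCODE M21 names by Ensembl identifier (52081 of 55414 matched). Positions are those of the tables, and promoter windows are RefSeq's on GRCm38.p6. CPM, TPM and log2 ratios were computed in Python 3.11.15 (scipy 1.17.1, pandas 2.3.3, numpy 2.4.6), with TMM factors of 0.951 and 1.05 from edgeR 4.0.16 in R 4.3.3 and a pseudocount of 0.5 read. Genes averaging 1 CPM or more are called measured. No edgeR test was run, since 1 library per group allows none, and calls are a rule of size at 2-fold and 1.5-fold. Counting intervals are Clopper-Pearson for a gene, Poisson for a level and those of a conditional odds ratio for a pair. Those for genes were run on simulated independent counts, which the interval assumes, so that run checks only the computation. Reads are not independent molecules, so these intervals and the limits of a count of 0 cover counting error only. Alternatives were other scalings, filters and pseudocounts, and counts divided by 2. The genes, lists, size rules and bands of mean CPM were chosen with earlier results of these data known. Named were the 10 genes, label checks, genes overlapping the 10 and, in each list, genes past 2-fold and up to 2 of the highest and lowest others, of which a few are counted but not reported here. Other pluripotency markers, the fibroblast markers with reads, Tmem140, Rffl and the head-to-head neighbours were named after their values were seen.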

Additional observations from a re-analysis of the deposited data

How the results depend on the processing

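Of the 10 genes, Nhej1 and Rif1 stayed past 2-fold under every scaling and pseudocount tried. With total counts 2 genes were at least 2-fold higher, since Paxx passed, 1 was at least 1.5-fold lower, since Xrcc5 did not pass, and the median log2 ratio of the 10 turned from -0.069 to 0.076. With upper-quartile factors that median was -0.19. With a mean of at least 5 CPM, 8 of the 10 remained and 1 was at least 1.5-fold higher, because Paxx fell under the filter. In the wider pathway total counts left 0 genes at least 2-fold lower, 3 at least 1.5-fold lower and a median of -0.047, and upper-quartile factors gave 14 at least 1.5-fold lower and a median of -0.31, against 3, 8 and -0.19 with TMM factors. The median of the 53BP1 effectors turned to 0.10 with total counts and that of end processing to -0.0076 with upper-quartile factors. Median-of-ratios factors, no filter and a pseudocount of 5 reads left the counts of the 10 genes and of all pathway genes within 1.5 times. Dividing counts by 2 widened the partner intervals but moved none across 1. No paired analysis was possible because each condition has 1 library. Depth limits Paxx and Xrcc4 most, with at most 156 reads each per library.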
